A study of Rattus norvegicus with 30 samples.

Results

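The mitochondrial carrier family, solute carrier family 25 (Slc25), was followed in cultured rat hepatocytes exposed to beta-naphthoflavone (BNF). Members were all genes of the array with a single gene symbol made of Slc25a and a number, together with the uncoupling proteins Ucp1, Ucp2 and Ucp3, and each gene was represented by the brightest of its probe sets, judged by mean log2 signal over all arrays. This gave 41 members among the 14217 genes measured, with 1 carrier gene not used here. Of the 41, 13 had more than 1 probe set, and 17 had a mean signal below that of the median gene (863). Fold changes compare the hybridisation signal of 1 probe set between samples; the signals of different probe sets do not rank genes by RNA amount. The probe sets of Slc25a14 and Slc25a27 carry suffixes that mark shared sequence, so their signal may include other transcripts.

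The cells were purchased, frozen primary hepatocytes of male Sprague Dawley rats, plated on collagen after thawing, overlaid with Matrigel and dosed on day 3 of culture. BNF is a synthetic flavone and a ligand of the aryl hydrocarbon receptor (AhR), a transcription factor. There were 6 groups of 5 arrays: 1% dimethyl sulfoxide (DMSO, the vehicle), 1 µM BNF and 100 µM BNF, each harvested at 24 and at 48 h, with both doses prepared in DMSO. Each array came from its own well, the labels do not tie wells to animals, and p-values therefore measure the spread between wells.

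Mitochondrial carriers are small proteins of the inner mitochondrial membrane that exchange nucleotides, phosphate, organic acids, amino acids, cofactors and iron between the cytosol and the matrix. In hepatocytes they join pathways that are split between both compartments: ornithine and aspartate carriers serve the urea cycle, the aspartate/glutamate and oxoglutarate carriers serve the malate-aspartate shuttle, and the citrate carrier supplies carbon for fatty acid synthesis. The uncoupling proteins belong to the same family and, in the case of Ucp1, let protons leak across the membrane.

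Sequences just upstream of the transcription start are shown for 4 of the carriers that were lower at 100 µM at both times and whose window holds the core of the AhR response element, GCGTG. They are RefSeq promoter windows of the GRCr8 assembly, the 250 bases before the annotated start, written 5′ to 3′ in the direction of the gene, with GCGTG, or its reverse complement CACGC, in capitals. Slc25a1 lies at chr11:96559804-96560053 on the plus strand, Slc25a4 at chr16:52805271-52805520 on the plus strand, Slc25a13 at chr4:35328361-35328610 on the minus strand and Slc25a29 at chr6:133517198-133517447 on the minus strand.
Slc25a1: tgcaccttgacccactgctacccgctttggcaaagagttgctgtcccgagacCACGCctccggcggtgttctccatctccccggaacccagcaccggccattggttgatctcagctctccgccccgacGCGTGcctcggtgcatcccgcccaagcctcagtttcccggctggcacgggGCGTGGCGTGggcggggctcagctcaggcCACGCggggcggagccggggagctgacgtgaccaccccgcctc
Slc25a4: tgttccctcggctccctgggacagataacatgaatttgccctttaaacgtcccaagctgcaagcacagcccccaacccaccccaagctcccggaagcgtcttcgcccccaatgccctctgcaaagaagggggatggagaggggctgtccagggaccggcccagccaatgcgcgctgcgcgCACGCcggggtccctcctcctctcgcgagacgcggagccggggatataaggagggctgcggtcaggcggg
Slc25a13: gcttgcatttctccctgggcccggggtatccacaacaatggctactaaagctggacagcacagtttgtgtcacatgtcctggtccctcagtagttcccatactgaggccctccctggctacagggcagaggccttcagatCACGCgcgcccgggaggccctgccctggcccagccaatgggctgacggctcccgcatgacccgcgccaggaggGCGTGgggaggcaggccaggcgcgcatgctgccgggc
Slc25a29: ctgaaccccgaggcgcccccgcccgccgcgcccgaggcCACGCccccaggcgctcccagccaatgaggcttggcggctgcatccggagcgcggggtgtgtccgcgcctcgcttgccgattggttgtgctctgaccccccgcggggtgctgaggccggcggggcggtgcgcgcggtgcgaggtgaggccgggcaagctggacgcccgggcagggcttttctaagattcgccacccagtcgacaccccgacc
The Slc25a1 window held 5 matches, Slc25a13 held 2, and Slc25a4 and Slc25a29 held 1 each. Slc25a10 and Slc25a25, also lower at 100 µM at both times, held 0 matches in their 250 bases and are not shown. A promoter entry was found for 36 of the 41 members, and 16 of these (44.4%) had at least 1 match on either strand in the 250 bases. Among the 11733 measured genes with an entry the share was 42.0%, and over all 33469 promoters of the table it was 25.9%. Split by response, 10 of the 15 members with an entry that were called at 100 µM at either time (66.7%) and 6 of the 21 not called (28.6%) had a match, beside 45.9% of all measured genes called there and 40.6% of those not called. The Slc25a15 window is 1 of these 10 and is not shown, since its last letters resemble a splice acceptor and its annotated start may not be a promoter; without it the share was 9 of 14 (64.3%), and 15 of 35 over the members (42.9%). The members without an entry were Slc25a30, Slc25a32, Slc25a36, Slc25a37 and Slc25a46, and all but Slc25a36 were called at 100 µM. Slc25a30, Slc25a37 and Slc25a46 were higher there, so the split by response left out most of the carriers that rose. Slc25a24, the riser with an entry, had 0 matches. A match is a stretch of letters and not a binding site, and no binding was measured here.

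At 100 µM 15 carriers changed at each time, and most of those that changed were lower. At 24 h 15 of 41 members passed the test (limma, adjusted p below 0.05 over all 14217 genes), 36.6% of the family beside 21.1% of all genes. Of these, 4 rose (10.7% of all genes rose) and 11 fell (10.4% of all genes fell). At 48 h 15 members passed again (17.4% of all genes), with 3 higher (8.79% of all genes) and 12 lower (8.62% of all genes). The median log2 fold change over the 41 members was -0.071 at 24 h and -0.066 at 48 h, against 0.042 and 0.017 over all genes, so the typical member moved little. Of the 24 members brighter than the median gene 50% were called at each time, beside 35.4% of all genes of that range at 24 h and 29.7% at 48 h. Of the 17 dimmer members 17.6% were called at each time, beside 6.84% and 5.14% of such genes. The 100 µM and vehicle arrays did not overlap for 12 members at 24 h (29.3%, beside 14.8% of all genes). At 48 h this held for 13 members (31.7%, beside 13.3% of all genes). In bulk RNA, fewer cells of a type and less RNA per cell cannot be told apart. Centring each array on its median signal gave 3 higher and 12 lower members at 24 h, and 4 higher and 9 lower at 48 h.

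**Figure D1:**
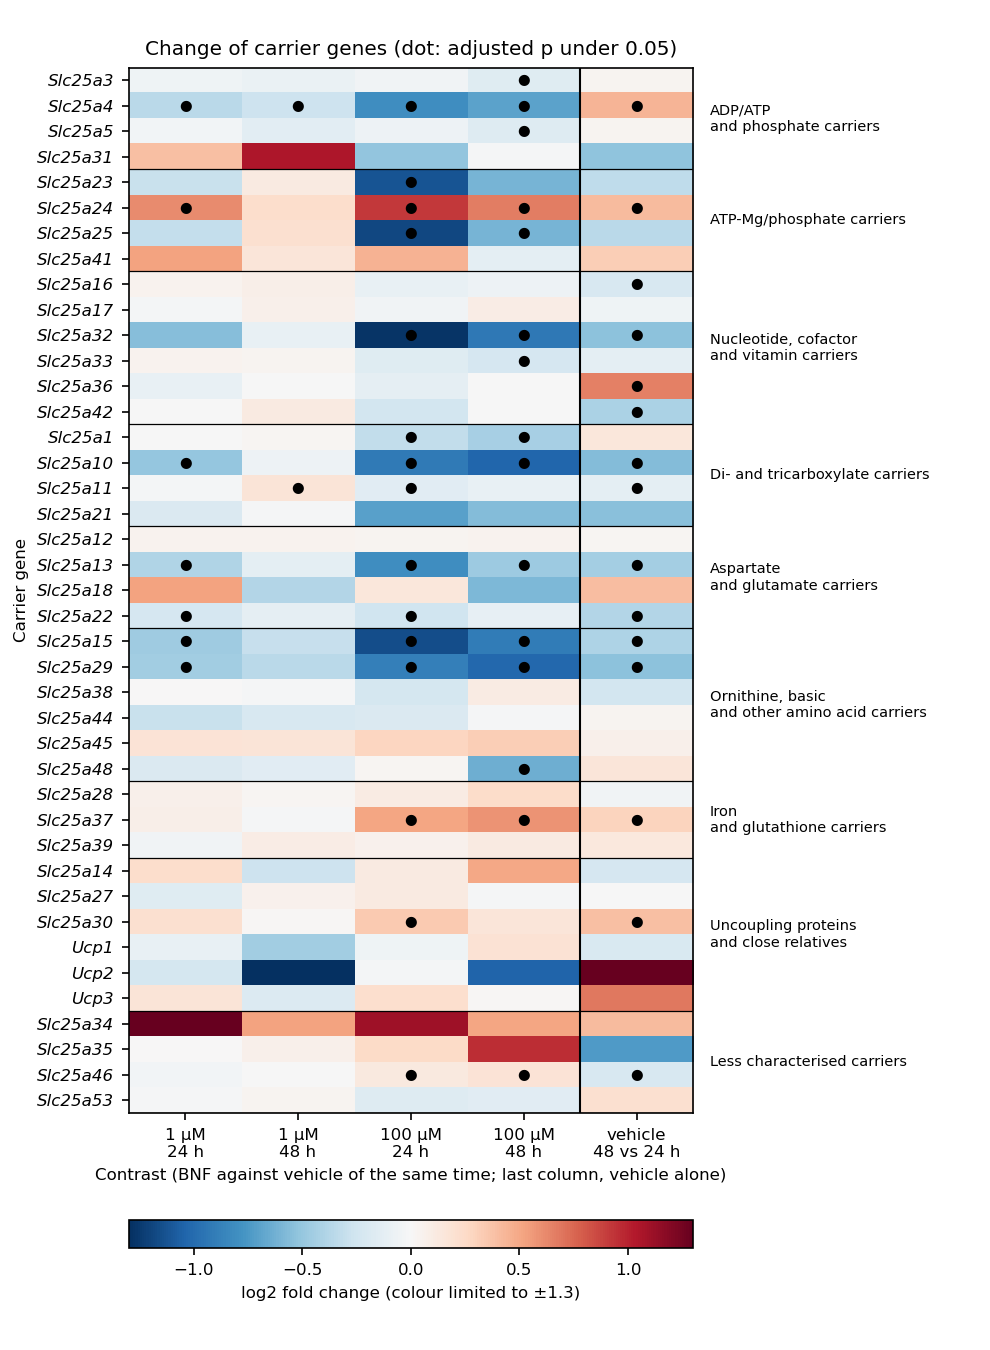
Log2 fold change of the 41 carrier genes (rows, by role) in the 4 comparisons with vehicle and in vehicle at 48 against 24 h (columns). Red is higher, blue is lower (colours are capped at the ends of the scale), and a dot marks an adjusted p below 0.05. The 100 µM columns hold 15 dots each, 11 of them on rows marked at both times.

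Both 100 µM comparisons had their own vehicle arrays, so they share no sample. Of the 15 carriers called at each time, 11 were called at both (73.3% of each list), and all 11 kept their direction. Over all genes, 1620 were called at both times, which is 54% of those called at 24 h and 65.5% of those called at 48 h, and 99.2% of them kept their direction. Lower at both times were Slc25a1, Slc25a4, Slc25a10, Slc25a13, Slc25a15, Slc25a25, Slc25a29 and Slc25a32. Slc25a24, Slc25a37 and Slc25a46 were higher at both times. Slc25a11, Slc25a22, Slc25a23 and Slc25a30 passed at 24 h and not at 48 h, and Slc25a3, Slc25a5, Slc25a33 and Slc25a48 passed at 48 h and not at 24 h.

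**Figure D2:**
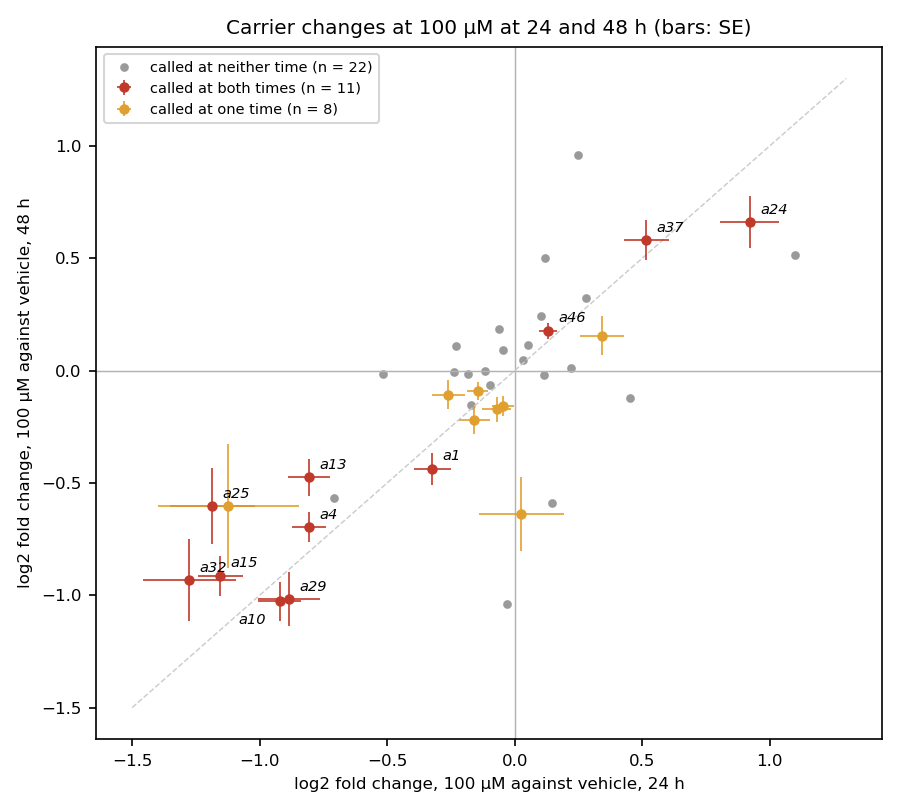
Log2 fold change at 100 µM against vehicle at 24 h (x axis) and at 48 h (y axis), 1 point per carrier, with SE bars for the called members and names (the prefix Slc25 left out) for the 11 called at both times. The 11 named points lie at the lower left or the upper right, 8 lower and 3 higher, and the dashed line marks equal change.

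The carriers of the urea cycle fell. Slc25a15, the mitochondrial ornithine carrier, brings ornithine into the matrix for citrulline synthesis. Its signals at 24 h were 11650.5, 11971, 13289, 13304 and 13762 in vehicle, 8305, 8803, 9606, 9678 and 9909.5 at 1 µM and 5190.4, 5546, 5849, 5953 and 6199 at 100 µM. At 48 h they were 7703, 9207, 9679.6, 10672 and 11552 in vehicle, 6735, 7348, 7807, 7818 and 9874 at 1 µM and 4547, 4946, 5299, 5469 and 5480.4 at 100 µM. All 100 µM arrays lay below all vehicle arrays at both times, while 1 µM was clear of vehicle at 24 h only. The log2 fold change at 100 µM was -1.15 (SE 0.089, adjusted p = 2.95e-11) at 24 h and -0.91 (SE 0.089, adjusted p = 2.86e-09) at 48 h. Slc25a15 has 6 probe sets. Besides the one used, 4 others were also lower at 100 µM at both times, with log2 fold changes from -1.28 to -0.56. The remaining one, with a mean signal of 15.5, gave 0.26 at 24 h (adjusted p = 0.809) and 0.84 at 48 h (adjusted p = 0.319).

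Slc25a29, which carries basic amino acids such as arginine and lysine, followed the same direction. Signals at 24 h were 3992, 4590.3, 4794, 4869 and 5057 in vehicle, 2952, 3153, 3413, 3584 and 3941 at 1 µM and 2229, 2314, 2611, 2678 and 2785 at 100 µM. Its signals at 48 h were 2466, 2975, 3038, 3336 and 4596 in vehicle, 2267, 2426, 2512, 2551 and 2912 at 1 µM and 1249, 1455, 1563, 1833 and 1929 at 100 µM. The 100 µM arrays were below every vehicle array at both times, and vehicle replicate 5 was the highest of its group at 48 h. The changes at 100 µM were -0.89 (SE 0.12, adjusted p = 1.56e-06) at 24 h and -1.02 (SE 0.12, adjusted p = 1.39e-07) at 48 h.

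Among the other 4 amino acid carriers of that role, Slc25a48, a choline carrier, fell at 48 h, from 570.0 ± 84.9 (SD, n = 5) in vehicle to 364 ± 24.4, a log2 fold change of -0.64 (SE 0.17, adjusted p = 0.00584). Its second probe set gave -0.11 at 48 h (adjusted p = 0.937). Slc25a38, the glycine carrier needed for heme synthesis, Slc25a44, a carrier of branched-chain amino acids, and Slc25a45 were not called at 100 µM, with log2 fold changes between -0.23 and 0.32.

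Of the aspartate and glutamate carriers, the liver form fell. Slc25a13 (citrin) exports aspartate in exchange for glutamate and a proton, which feeds both the urea cycle and the malate-aspartate shuttle. At 24 h its signals were 11812, 12424, 12854, 13202 and 13750.3 in vehicle, 8999, 9598, 9799.6, 9932 and 10516 at 1 µM and 6752, 6875, 7479.8, 7633 and 7912 at 100 µM. At 48 h Slc25a13 gave 7400.4, 9063, 9119, 9505 and 12553 in vehicle, 7582, 8156, 8840.4, 9117 and 9292 at 1 µM and 6516, 6594, 6782, 6785 and 7137 at 100 µM. The 3 groups at 24 h were fully separated in the order of the dose, and at 48 h 100 µM stayed below all other arrays. Log2 fold changes at 100 µM were -0.81 (SE 0.082, adjusted p = 8.05e-09) at 24 h and -0.47 (SE 0.082, adjusted p = 6.45e-05) at 48 h. The second probe set of Slc25a13 did not pass, and gave -0.29 at 24 h (adjusted p = 0.0714) and -0.23 at 48 h (adjusted p = 0.201).

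Slc25a12 (aralar), the aspartate/glutamate carrier of muscle and brain, measured 960.3 ± 98.1 (SD, n = 5) in vehicle and 998 ± 232 at 100 µM at 24 h, a log2 fold change of 0.032 (adjusted p = 0.9), with a 95% confidence interval from -0.20 to 0.27. Slc25a22, a glutamate carrier, fell at 24 h, from 7757 ± 666 to 6469 ± 379.9 (log2 fold change -0.26, SE 0.065, adjusted p = 0.00346). At 48 h Slc25a22 was not called (-0.11, adjusted p = 0.303). Slc25a18, the second glutamate carrier, had group means from 25.7 to 39.5 and was not called.

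**Figure D3:**
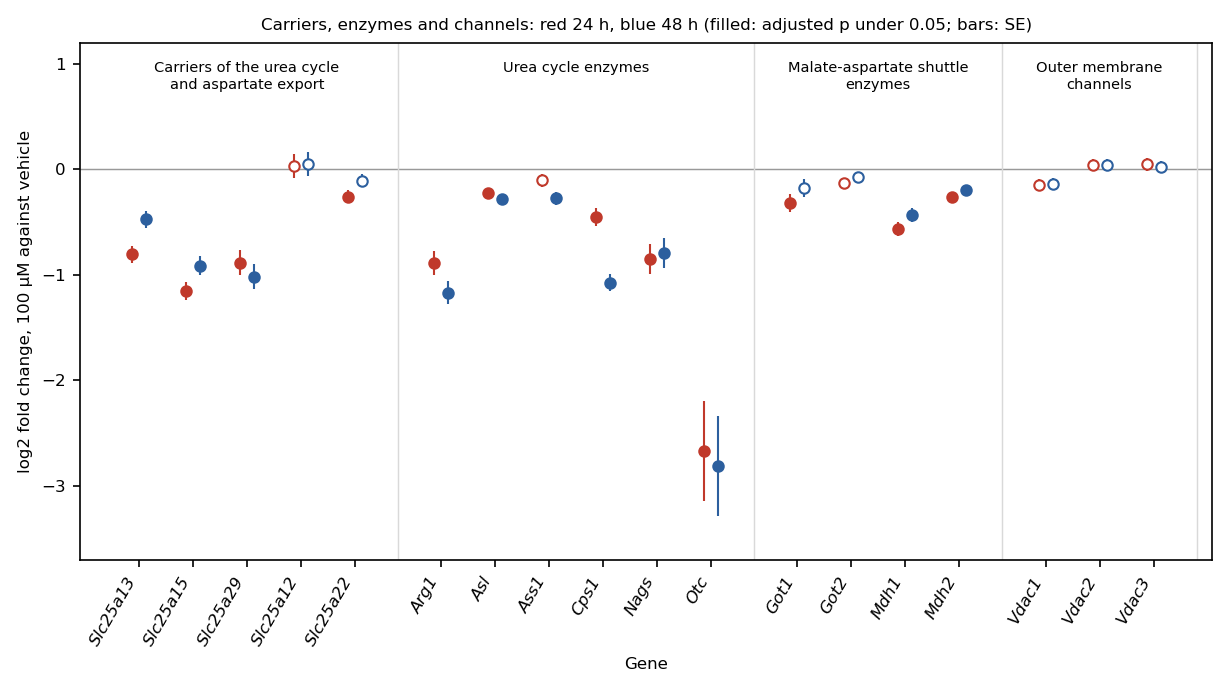
Log2 fold change at 100 µM against vehicle (y axis) at 24 h (red) and 48 h (blue) for carriers of the urea cycle and of aspartate and glutamate, the 6 urea cycle enzymes, 4 malate-aspartate shuttle enzymes and 3 outer membrane channels. Filled points passed the test and bars are SE. Slc25a13, Slc25a15 and Slc25a29 are filled and below 0 at both times, as are 5 of the 6 urea cycle enzymes, and the channels are open and near 0.

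The enzymes that these carriers serve were read from lists. All 6 urea cycle enzymes were measured, and 5 fell at 24 h and 6 at 48 h at 100 µM. These are 83.3% and 100% of the list, beside 10.4% and 8.62% of all genes lower. Otc, which joins ornithine to carbamoyl phosphate in the matrix, changed by -2.67 (SE 0.47, adjusted p = 6.58e-05) at 24 h and -2.81 (SE 0.47, adjusted p = 3.93e-05) at 48 h. Arg1, the cytosolic arginase, changed by -0.89 (SE 0.11, adjusted p = 4.24e-07) and -1.17 (SE 0.11, adjusted p = 2.15e-09), and Cps1, the matrix enzyme of the first step, by -0.45 (SE 0.081, adjusted p = 7.59e-05) and -1.08 (SE 0.081, adjusted p = 1.17e-11). Of the 4 malate-aspartate shuttle enzymes, 3 fell at 24 h (75%) and 2 at 48 h (50%), beside the same 10.4% and 8.62% of all genes. They were led by Mdh1, the cytosolic malate dehydrogenase, with -0.56 (SE 0.067, adjusted p = 1.50e-07) and -0.43 (SE 0.067, adjusted p = 1.31e-05). The matrix transaminase Got2 was not called, with -0.13 (adjusted p = 0.0666) and -0.078 (adjusted p = 0.346).

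The di- and tricarboxylate carriers gave 3 lower members of 4 at 24 h and 2 at 48 h at 100 µM, beside 10.4% and 8.62% of all genes lower. Slc25a10, the dicarboxylate carrier, exchanges malate or succinate for phosphate. Its signals at 24 h were 3828, 3919, 4072, 4595 and 5170.1 in vehicle, 2854, 2997, 3048, 3092 and 3132 at 1 µM and 2177, 2199, 2299.7, 2313 and 2337 at 100 µM. At 48 h Slc25a10 gave 2534, 2634, 2925, 3159 and 3382 in vehicle, 2591, 2632, 2798, 2821 and 3059 at 1 µM and 1258, 1279.8, 1359, 1583 and 1712 at 100 µM. The 24 h groups did not overlap, and at 48 h the 1 µM arrays lay among the vehicle arrays while 100 µM lay below both. The change at 100 µM was -0.92 (SE 0.085, adjusted p = 1.13e-09) at 24 h and -1.03 (SE 0.085, adjusted p = 9.70e-11) at 48 h. A second, dimmer probe set (mean signal 318) gave -0.60 (adjusted p = 0.146) and -0.65 (adjusted p = 0.124).

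Slc25a1, the citrate carrier, fell from 8979 ± 649 (SD, n = 5) in vehicle to 7199.6 ± 797 at 24 h and from 9926 ± 429 to 7334 ± 285 at 48 h. The log2 fold changes were -0.32 (SE 0.071, adjusted p = 0.000937) and -0.44 (SE 0.071, adjusted p = 2.54e-05), and the groups overlapped at 24 h and not at 48 h. Acly, the cytosolic enzyme that cleaves the exported citrate, fell as well, with -1.24 (SE 0.059, adjusted p = 5.02e-16) and -0.75 (SE 0.059, adjusted p = 3.43e-11). In the list of 7 measured genes of citrate export, pyruvate entry and malic enzyme, 3 fell and 1 rose at each time. These are 42.9% and 14.3% of the list. Over all genes 10.4% were lower and 10.7% higher at 24 h, and 8.62% and 8.79% at 48 h. The riser was Me1, the cytosolic malic enzyme, with 0.28 (SE 0.059, adjusted p = 0.000583) and 0.27 (SE 0.059, adjusted p = 0.00137).

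Slc25a11, the oxoglutarate/malate carrier, changed least among the called carriers of this role. Signals at 24 h were 7669.5, 7942, 8047, 8053 and 8139 in vehicle, 7426, 7579, 7998, 8019 and 8223 at 1 µM and 6833, 6949, 7322, 7327 and 7643 at 100 µM. At 48 h Slc25a11 gave 6998, 7172, 7256, 7515 and 7539.7 in vehicle, 7928, 8062, 8178, 8251 and 8521 at 1 µM and 6447, 6608, 6669, 7109 and 7428 at 100 µM. At 24 h the 100 µM arrays lay below vehicle by a narrow margin, and at 48 h the 1 µM arrays lay above all others. Slc25a11 changed by -0.14 (SE 0.041, adjusted p = 0.00933) at 100 µM and 24 h, and at 48 h it was not called (-0.092, adjusted p = 0.132). Slc25a21, the oxodicarboxylate carrier, had signals of 35.1 to 106 in vehicle at 24 h and was not called.

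Of the ADP/ATP and phosphate carriers called, Slc25a4 moved most. Slc25a4 (ANT1) is the adenine nucleotide translocase of muscle and heart, which exports ATP from the matrix in exchange for ADP. At 24 h its signals were 10177, 10699, 10865, 11174 and 13426 in vehicle, 8083, 8531, 8630.3, 9174 and 9554 at 1 µM and 5638, 6336, 6579, 6717 and 6855 at 100 µM. At 48 h Slc25a4 gave 14444, 14963, 15008, 15681 and 16154 in vehicle, 11956, 12202, 12369, 12619.7 and 13971 at 1 µM and 8534, 8809.9, 9665, 9677 and 10463 at 100 µM. At each time the groups were separated without overlap, vehicle highest and 100 µM lowest. At 100 µM the changes were -0.81 (SE 0.066, adjusted p = 8.80e-11) at 24 h and -0.70 (SE 0.066, adjusted p = 1.49e-09) at 48 h. Slc25a4 was the 1 carrier called at 1 µM at both times, with -0.35 (SE 0.066, adjusted p = 0.00124) at 24 h and -0.27 (SE 0.066, adjusted p = 0.036) at 48 h.

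The other translocases and the phosphate carrier showed smaller differences. Slc25a5 (ANT2), the translocase widespread in dividing and liver cells, measured 42475 ± 1383 (SD, n = 5) in vehicle and 40493 ± 2803 at 100 µM at 24 h (-0.071, adjusted p = 0.444). At 48 h it fell from 43587 ± 2709.7 to 38725 ± 3133 (-0.17, SE 0.057, adjusted p = 0.0312). Slc25a3, the phosphate carrier of ATP synthesis, fell at 48 h from 28525 ± 1462 to 25573 ± 737 (-0.16, SE 0.044, adjusted p = 0.0108). Both 48 h calls were lost with median centring, where adjusted p was 0.287 for Slc25a5 and 0.263 for Slc25a3. The Slc25a5 call was also lost without vehicle replicate 1, 2 or 5 or 100 µM replicate 1 or 5 (adjusted p between 0.0522 and 0.137). Slc25a31, the translocase of germ cells, had signals of 52.1 to 306 in vehicle at 24 h and was not called. The outer membrane channels Vdac1, Vdac2 and Vdac3, through which the same solutes pass, gave 0 calls of 3 in every comparison, with log2 fold changes at 100 µM from -0.15 to 0.045 at 24 h.

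The ATP-Mg/phosphate carriers, which set the adenine nucleotide content of the matrix, moved in opposite directions. Slc25a24 (APC1) rose. Its signals at 24 h were 4781, 4939, 5038, 6543 and 7621 in vehicle, 6797, 8072, 9498, 9516 and 10031 at 1 µM and 9306, 10718, 10933, 11212 and 11826 at 100 µM. At 48 h Slc25a24 gave 6329, 7019, 7223, 8246 and 9408 in vehicle, 7689, 8739, 8967, 9375 and 9899 at 1 µM and 11074, 11432, 12117, 12345 and 13006 at 100 µM. The 100 µM arrays lay above all vehicle arrays at both times, and 1 µM overlapped with vehicle. The rise at 100 µM was 0.92 (SE 0.11, adjusted p = 3.40e-07) at 24 h and 0.66 (SE 0.11, adjusted p = 6.47e-05) at 48 h.

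Slc25a25 fell from 869 ± 177 (SD, n = 5) in vehicle to 378 ± 53.2 at 24 h, and from 675 ± 109 to 447 ± 92.2 at 48 h, with changes of -1.19 (SE 0.17, adjusted p = 2.80e-06) and -0.60 (SE 0.17, adjusted p = 0.0101). Slc25a23, a dim probe set, fell at 24 h from 437 ± 89.1 to 222 ± 89.4 (-1.12, SE 0.28, adjusted p = 0.00303). In its other probe sets the 24 h values were -0.29 (adjusted p = 0.741) and -0.11 (adjusted p = 0.906), and with the mean of its probe sets the call was lost. Array 2 of the 100 µM group was the lowest, and without it the log2 fold change of Slc25a23 was -0.72 (SE 0.19, adjusted p = 0.00721). Slc25a41, the calcium-independent member, was not called (0.45, adjusted p = 0.207 at 24 h).

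Among the 6 carriers of nucleotides, cofactors and vitamins, Slc25a32 fell. Slc25a32 brings folate, and by other evidence FAD, into mitochondria. At 24 h its signals were 919, 1068, 1115, 1173 and 1229 in vehicle, 630.0, 685, 707, 710.3 and 1059 at 1 µM and 376, 405, 482, 492 and 527 at 100 µM. At 48 h Slc25a32 gave 603, 614, 777, 910.2 and 939 in vehicle, 492, 625, 703, 889 and 907 at 1 µM and 303, 327, 402, 426 and 574 at 100 µM. Every 100 µM array was below every vehicle array at both times, and at 1 µM the second replicate at 24 h was near the vehicle arrays while the other 4 were below them. The changes at 100 µM were -1.28 (SE 0.18, adjusted p = 2.91e-06) and -0.93 (SE 0.18, adjusted p = 0.000287), the former the lowest of all called carriers at 24 h. A second probe set was also called, at -1.66 (adjusted p = 0.000347) and -0.97 (adjusted p = 0.0499).

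Slc25a33, a pyrimidine nucleotide carrier, fell at 48 h from 4487 ± 374 (SD, n = 5) to 3847 ± 246 (-0.22, SE 0.06, adjusted p = 0.00887), a call lost with median centring (adjusted p = 0.136). The other 4, Slc25a16, Slc25a17, Slc25a36 and Slc25a42, were not called at 100 µM. Their log2 fold changes lay between -0.24 and 0.094.

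Of the 3 iron and glutathione carriers, 1 rose and 0 fell at 100 µM at each time, beside 10.7% and 8.79% of all genes higher. Slc25a37 (mitoferrin 1) imports iron for heme and iron-sulfur clusters, best known from erythroid cells. Its signals at 24 h were 1118, 1245, 1277, 1417 and 1502 in vehicle, 1241, 1277, 1369, 1478 and 1522 at 1 µM and 1656, 1661, 1891, 1931 and 2257 at 100 µM. At 48 h Slc25a37 gave 1342, 1575, 1629, 1718 and 1748 in vehicle, 1504, 1522, 1556, 1595 and 1709 at 1 µM and 2135, 2345, 2439, 2499 and 2542 at 100 µM. At both times 1 µM overlapped with vehicle and 100 µM lay above both. The rises at 100 µM were 0.52 (SE 0.089, adjusted p = 4.71e-05) and 0.58 (SE 0.089, adjusted p = 1.03e-05). Slc25a28 (mitoferrin 2), the widely expressed paralogue, gave 0.10 (adjusted p = 0.608) and, at 48 h, 0.24 (adjusted p = 0.158). Slc25a39, the mitochondrial glutathione carrier, gave 0.053 (adjusted p = 0.568) and 0.12 (adjusted p = 0.15). Of 9 measured genes of heme synthesis and mitochondrial iron use, 0 rose and 2 fell at 24 h (22.2%), and 0 rose and 1 fell at 48 h (11.1%), beside 10.4% and 8.62% of all genes lower, which is near them for a list this short. Alas1, the first enzyme of heme synthesis, was lower at both, with -0.41 (SE 0.063, adjusted p = 1.17e-05) and -0.34 (SE 0.063, adjusted p = 0.000182).

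The less characterised carriers included a small rise of Slc25a46, an outer membrane member of the family that acts in mitochondrial shape rather than transport. Signals at 24 h were 6350.4, 6379, 6401, 6449.7 and 6500.1 in vehicle, 6082, 6127, 6282, 6392 and 6399 at 1 µM and 6778, 6785, 6921, 7125 and 7499 at 100 µM. At 48 h Slc25a46 gave 5393, 5447, 5535, 5657 and 5831 in vehicle, 5299.8, 5472, 5485, 5561 and 5886 at 1 µM and 6071, 6158, 6347, 6451 and 6486 at 100 µM. The 100 µM arrays were above all others of their time, by a margin that was small against the level. Its changes were 0.13 (SE 0.036, adjusted p = 0.008) and 0.18 (SE 0.036, adjusted p = 0.000415). The 24 h call was lost with median centring (adjusted p = 0.548) and with the compared groups alone (adjusted p = 0.0513). At 48 h the second probe set of Slc25a46 gave 0.17 and was not called (adjusted p = 0.15). Slc25a34, Slc25a35 and Slc25a53 were dimmer than the median gene and not called. Slc25a35 had signals of 48.7 to 276 in vehicle and 301 to 337 at 100 µM at 48 h (0.96, SE 0.37, adjusted p = 0.0713). These ranges did not overlap, as was the case for 13.3% of all genes in this comparison. Slc25a34 gave 1.61 (SE 0.59, adjusted p = 0.125) at 1 µM and 1.10 (SE 0.59, adjusted p = 0.215) at 100 µM at 24 h, from signals of 6.65 to 29.8 in vehicle.

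The 6 uncoupling proteins and relatives gave 1 call in all comparisons with vehicle, at 100 µM and 24 h, where 21.1% of all genes were called. Slc25a30, a relative expressed in kidney, rose at 100 µM and 24 h from 2405 ± 363 (SD, n = 5) to 3025 ± 130.2 (0.34, SE 0.087, adjusted p = 0.00425), and its second probe set gave 0.23 (adjusted p = 0.868). Ucp2, the form found in many tissues and low in hepatocytes, had signals of 97 to 452 in vehicle, 48.8 to 281 at 1 µM and 58.8 to 271 at 100 µM at 48 h. These ranges overlapped, and the changes of -1.41 (SE 0.57, adjusted p = 0.31) at 1 µM and -1.04 (SE 0.57, adjusted p = 0.244) at 100 µM were not called. A change of that size in Ucp2 was not detectable with this spread between wells. Ucp1, the form of brown fat, had signals of 115 to 182 and Ucp3, the form of muscle, 177 to 440.1 in vehicle at 24 h, and neither was called in any comparison with vehicle. Slc25a14 and Slc25a27, forms of the brain, were not called either.

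**Figure D4:**
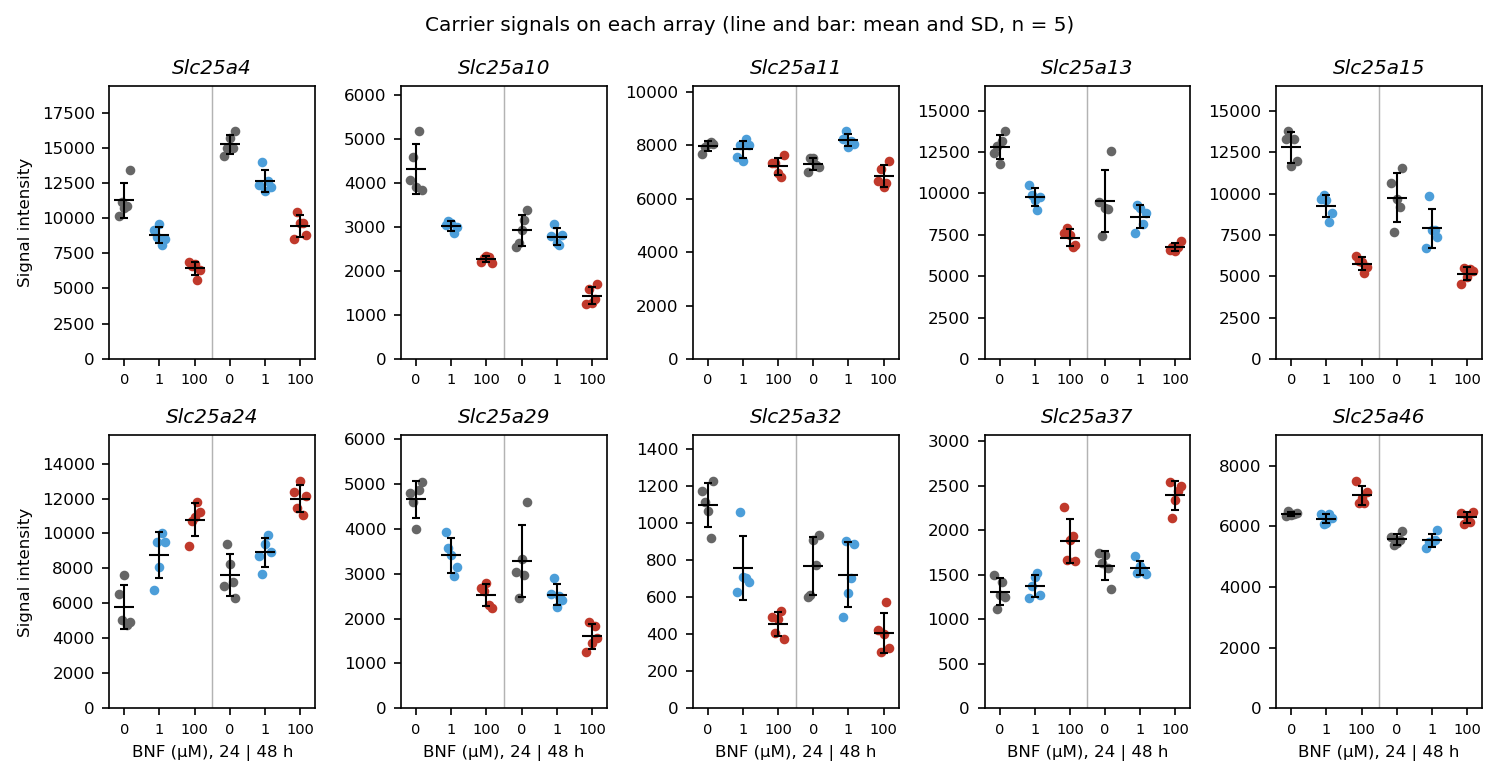
Signal intensity (y axis, from 0) of 10 carriers on each of the 30 arrays, by BNF dose (x axis; 0 is vehicle) with 24 h left and 48 h right of the grey line. Points are arrays, and the line and bar are the mean and SD of 5. The 10 were chosen in part because their arrays separate fully in a comparison with vehicle, so the gaps between red (100 µM) and grey (vehicle) points are a description; for Slc25a11 they overlap at 48 h.

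The 1 µM comparisons use the same vehicle arrays as the 100 µM comparisons of their time. At 1 µM fewer carriers changed, and those that changed at 24 h were mainly lower. At 24 h 7 of 41 members were called (4.3% of all genes), 1 higher (1.91% of all genes) and 6 lower (2.4% of all genes). The 1 µM and vehicle arrays did not overlap for 5 members (12.2%, beside 5.2% of all genes). Slc25a10 changed by -0.50 (SE 0.085, adjusted p = 0.000455), Slc25a13 by -0.39 (adjusted p = 0.00404), Slc25a15 by -0.47 (adjusted p = 0.00168) and Slc25a29 by -0.45 (adjusted p = 0.026) on the log2 scale. Slc25a4, described above, and Slc25a22 (-0.22, SE 0.065, adjusted p = 0.0438) were lower too, and Slc25a24 was the 1 riser (0.61, SE 0.11, adjusted p = 0.00131). Averaging the probe sets of each gene left 3 calls and ended those of Slc25a10, Slc25a13, Slc25a15 and Slc25a22. The Slc25a22 call was also lost without vehicle replicate 1, 4 or 5 or 1 µM replicate 2, 3, 4 or 5 (adjusted p between 0.0678 and 0.14), and the Slc25a29 call without vehicle replicate 1, 4 or 5 or 1 µM replicate 3, 4 or 5 (adjusted p between 0.0518 and 0.0867).

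At 48 h 1 µM gave 2 calls (0.809% of all genes) and 2 members without overlap with vehicle (4.88%, beside 2.62% of all genes). Slc25a11 rose (0.17, SE 0.041, adjusted p = 0.0417; 0.288% of all genes rose) and Slc25a4 fell (-0.27, SE 0.066, adjusted p = 0.036; 0.521% of all genes fell). Slc25a15 and Slc25a29, called at 24 h, gave -0.30 (adjusted p = 0.124) and -0.35 (adjusted p = 0.21) at 48 h. The Slc25a11 call was lost without any single array of these groups except vehicle replicate 2 (adjusted p between 0.0507 and 0.131), and the Slc25a4 call without any except replicate 2 of either group (adjusted p between 0.0564 and 0.111). With median centring the Slc25a11 rise was 0.087 (adjusted p = 0.643). It was also lost with those groups alone (adjusted p = 0.126) and without a trend (adjusted p = 0.0756). The Slc25a4 call was lost with quantile normalization (adjusted p = 0.0554) and without a trend (adjusted p = 0.0789). Slc25a15 passed at 48 h without vehicle replicate 2 (adjusted p = 0.0189) or without 1 µM replicate 2 (adjusted p = 0.0178).

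The doses were compared directly, and 100 µM was lower than 1 µM for most carriers called. At 24 h 11 members differed (7.72% of all genes), 2 higher (3.14% of all genes) and 9 lower (4.57% of all genes) at 100 µM. The highest were Slc25a37 (0.44, SE 0.089, adjusted p = 0.00109) and Slc25a46 (0.17, SE 0.036, adjusted p = 0.00219), and the lowest were Slc25a25 (-0.87, SE 0.17, adjusted p = 0.000702), Slc25a32 (-0.72, SE 0.18, adjusted p = 0.00944) and Slc25a15 (-0.69, SE 0.089, adjusted p = 3.24e-06). Slc25a4, Slc25a10, Slc25a13 and Slc25a29 were lower, with -0.45, -0.42, -0.42 and -0.43 log2 units, as were Slc25a1 with -0.32 and Slc25a33 with -0.20. Leaving out single arrays ended the call of Slc25a33 in 8 cases (adjusted p between 0.0501 and 0.111) and that of Slc25a29 in 4 (adjusted p between 0.0572 and 0.0828). Median centring ended those of Slc25a29, Slc25a33 and Slc25a46 (adjusted p = 0.071, 0.29 and 0.0988). With the mean of probe sets Slc25a10 and Slc25a13 were not called (adjusted p = 0.166 and 0.0609), nor were they in their second probe sets (adjusted p = 0.715 and 0.617). At 48 h 14 members differed (14% of all genes), 3 higher (6.57% of all genes) and 11 lower (7.39% of all genes). Slc25a24 joined Slc25a37 and Slc25a46 among the higher (0.43, SE 0.11, adjusted p = 0.00968). Slc25a10 was the lowest (-0.96, SE 0.085, adjusted p = 1.12e-09), and Slc25a11 and Slc25a48 joined the lower ones, with -0.26 (SE 0.041, adjusted p = 2.53e-05) and -0.49 (SE 0.17, adjusted p = 0.0454). The Slc25a48 call was lost in 9 of the 10 fits that left out an array (adjusted p between 0.0556 and 0.11). Its second probe set gave 0.34 (adjusted p = 0.777), and with the mean of probe sets adjusted p was 0.905. That mean also ended the 48 h calls of Slc25a13 and Slc25a32 (adjusted p = 0.103 and 0.0704). Second probe sets of Slc25a10, Slc25a13 and Slc25a32 gave -0.33, -0.12 and -0.39 at 48 h and did not pass (adjusted p = 0.573, 0.619 and 0.591). Centring on the array median moved the median over all genes at 48 h from -0.021 to 0.089, and 3 carriers were then higher and 7 lower, with Slc25a11, Slc25a13, Slc25a33 and Slc25a48 no longer called.

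Whether the effect of a dose differed between 24 and 48 h was tested as the difference of the log2 fold changes. At 1 µM 0 of 41 members were called in limma (0.0914% of all genes), with 5 at an unadjusted p below 0.05. At 100 µM the count was again 0 (0.788% of all genes), with 4 at an unadjusted p below 0.05, among them Slc25a13 (0.33, SE 0.12, adjusted p = 0.211). Without vehicle 48 h replicate 5, whose Slc25a13 signal was the highest of its group, the Slc25a13 difference was 0.44 (SE 0.091, adjusted p = 0.0119), which made it the 1 member called. The fits with other scalings, without dim genes, with averaged probe sets, with 16 added, without a trend and with those groups alone all gave 0.

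Carriers also differed between times in vehicle alone. From 24 to 48 h 15 of 41 members were called (17.2% of all genes), 5 higher (8.64% of all genes) and 10 lower (8.6% of all genes). Slc25a36, a pyrimidine nucleotide carrier, rose most of those called, from 1503 ± 129 (SD, n = 5) to 2368 ± 147 (0.66, SE 0.08, adjusted p = 3.23e-07), and was not called at either dose. Slc25a4 rose as well (0.44, SE 0.066, adjusted p = 8.64e-06), as did Slc25a24 (0.41, SE 0.11, adjusted p = 0.0106), Slc25a30 (0.39, SE 0.087, adjusted p = 0.00171) and Slc25a37 (0.29, SE 0.089, adjusted p = 0.0211). Slc25a10 (-0.56, SE 0.085, adjusted p = 1.22e-05), Slc25a13 (-0.45, SE 0.082, adjusted p = 0.000165), Slc25a15 (-0.40, SE 0.089, adjusted p = 0.00149), Slc25a29 (-0.53, SE 0.12, adjusted p = 0.0018) and Slc25a32 (-0.54, SE 0.18, adjusted p = 0.0381) fell. Slc25a22, Slc25a42, Slc25a16, Slc25a46 and Slc25a11 changed by -0.38, -0.41, -0.21, -0.20 and -0.13 log2 units. Leaving out single arrays ended the call of Slc25a32 in 7 cases, Slc25a11 in 5, Slc25a37 in 4, Slc25a42 in 2 and Slc25a24 in 1, with adjusted p between 0.0503 and 0.115. Median centring ended the calls of Slc25a37 and Slc25a11 (adjusted p = 0.0739 and 0.197). The mean of probe sets ended those of Slc25a30, Slc25a32 and Slc25a46 (adjusted p = 0.577, 0.163 and 0.139). With the compared groups alone the calls of Slc25a24, Slc25a37 and Slc25a11 were lost (adjusted p = 0.0572, 0.0727 and 0.0506). Second probe sets of Slc25a10, Slc25a13, Slc25a30, Slc25a32 and Slc25a46 did not pass (adjusted p = 0.383, 0.238, 0.887, 0.53 and 0.981). Of the other Slc25a15 probe sets, those giving -0.15 and -0.31 did not pass (adjusted p = 0.549 and 0.793), and the rest kept the call. The vehicle arrays of each time also enter the BNF comparisons of that time.

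Genes that bring carriers into the inner membrane were called about as often upward as all genes were. Of 16 measured genes of carrier import, 2 rose (12.5%) and 0 fell at 100 µM at each time, beside 10.7% of all genes higher at 24 h and 8.79% at 48 h. Tomm70, the outer membrane receptor for carrier precursors, rose at both, with 0.18 (SE 0.051, adjusted p = 0.00986) and 0.20 (SE 0.051, adjusted p = 0.005). Of 9 regulators of mitochondrial biogenesis, Tfam, which packages mitochondrial DNA, rose at both times, with 0.30 (SE 0.047, adjusted p = 1.02e-05) and 0.28 (SE 0.047, adjusted p = 3.19e-05). That is 11.1% of the list higher, near the shares over all genes. Ppargc1a, a coactivator of mitochondrial genes, fell at 48 h (-0.45, SE 0.14, adjusted p = 0.0268).

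Some markers of cell types were called at 100 µM, and their part in these results was not tested. Of 11 measured hepatocyte markers, 0 rose and 5 fell at 100 µM at 24 h and 7 fell at 48 h, among them Cps1, which is also a urea cycle enzyme. These are 45.5% and 63.6% of the list, beside 10.4% and 8.62% of all genes lower. The other lists hold 5 to 10 genes and gave 0 to 3 calls each. The summed hepatocyte marker signal ran from 482134 to 540534 in vehicle and from 414155 to 532567 at 100 µM at 24 h, and from 415903 to 493758 in vehicle and 321647 to 395953 at 100 µM at 48 h. The hepatocyte sums therefore overlapped at 24 h and not at 48 h. Of 10 Kupffer cell markers 1 rose at 24 h and 1 fell at 48 h, with sums, in vehicle and at 100 µM in this order, of 18022 to 22158 and 21320.2 to 25512 at 24 h and of 15199 to 16393 and 12979 to 14213 at 48 h. Cd14 made up between 65.2% and 69.3% of the Kupffer sums, and the rest of the list overlapped at both times. Of 10 stellate cell markers 3 fell at 24 h and 2 at 48 h, with sums of 6046 to 9498 and 4504 to 5752 at 24 h and of 2969 to 5183 and 3042 to 4181 at 48 h. The 24 h difference between the sums was in Lox, with a mean of 5233 in vehicle and 2069 at 100 µM. The other stellate genes summed to 2638 to 3559 and 2339 to 3162. Lox was not the only stellate marker lower at 24 h, since Lrat, a dim gene, had means of 77.4 in vehicle and 18.4 at 100 µM. Endothelial markers (8 measured) gave 0 calls at 24 h and 1 lower at 48 h, and cholangiocyte markers (5 measured) likewise 0 and 1 lower. Endothelial sums, in the same order, were 3054 to 3486 and 2913 to 5103 at 24 h and 1760.0 to 2644 and 1854 to 3083 at 48 h. Cholangiocyte sums were 10225 to 11574 and 10289 to 11179 at 24 h and 11426 to 13108 and 9074 to 9786 at 48 h, without overlap at 48 h. Nearly all of that sum was Epcam (98.2% in vehicle and 97.2% at 100 µM at 48 h), with means of 11792 and 9194; the other cholangiocyte genes summed to 164 to 332 and 190 to 320.0. No marker list was at 0 in any group.

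Array medians differed in part between groups. At 48 h they ran from 368 to 389 in vehicle, from 380 to 428 at 1 µM and from 337 to 402 at 100 µM. Median signals ran from 337 to 428 over the 30 arrays, the ratio of 3′ to 5′ signal from 1.06 to 1.15 for the Gapdh control and from 2.31 to 2.95 for actin, and the median gene had a within-group SD of 0.19 to 0.21 log2 units. Across all genes, centring each array on its median changed the share of calls that were higher from 50.8% to 30.4% for 100 µM at 24 h, from 44.3% to 12.9% for 1 µM at 24 h, from 35.7% to 12.1% for 1 µM at 48 h and from 47.1% to 76.2% for 100 against 1 µM at 48 h. The 8 carriers lower and the 3 higher at both times kept these directions at 100 µM with median centring and with quantile normalization.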

How the data were processed

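RNA of 30 wells was hybridised to Affymetrix arrays, 5 in each of 6 groups. The authors deposited 1 linear intensity for every probe set, and MAS5 is named in the submitters' processing notes (version not given in the sources used here). Every array had a trimmed mean of 1500.5 to 1500.6 (2% trimmed at each end), so arrays had been scaled to a common level, which hides any shift common to most genes. Of 31099 probe sets, 57 control probe sets were left out. The platform annotation gave 20826 a single gene symbol, 436 several and 9780 none, and 20758 of the single ones matched the GRCr8 gene table. Each of 14217 genes was represented by its brightest probe set over all arrays. Other probe sets were tested in a fit over all probe sets.

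Intensities were taken to log2 and fitted in limma 3.58.1 (R 4.3.3) with a mean per group over all 30 arrays (24 residual degrees of freedom), eBayes and a mean-variance trend. Each of the 9 contrasts was adjusted over the 14217 genes (Benjamini-Hochberg) with a threshold of 0.05. SE is that of the log2 fold change and intervals are 95%. The fit was tested on simulated data. No 2 arrays were identical (0 pairs), and the closest pair differed by a mean of 0.499 log2 units beside a median of 0.544 within groups. Columns of other samples numbered 0.

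Every member is named with its change where called. Values on every array are given for members among the 5 highest or 5 lowest called in a comparison with vehicle, whose arrays separate fully and whose brighter group's mean log2 signal exceeds that of the median gene, which gave 10. The members, lists and rules were chosen with earlier results of these data known. Replicate numbers follow the sample order and only name an array. Alternatives were other array scalings, a filter on dim genes, other probe sets, 16 added before log2, the compared groups alone, no trend, each array left out and, chosen after seeing the data, a block for rounds of 6 arrays. Protein comparison was not made, since no protein table was used here. The 250 bases upstream in the promoter table were searched for GCGTG on both strands.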

Additional observations from a re-analysis of the deposited data

Results flagged for a closer look

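One array stood apart in its group. For Slc25a32, replicate 2 of 1 µM BNF at 24 h had a signal of 1059, while the other 4 arrays of the group measured 630.0 to 710.3. On the log2 scale the gap to the nearest array was 0.769 of the whole range of the group, above 0.71, the critical value of Dixon's test for 5 samples. Of the 60 groups tested (10 carriers in 6 groups) this was 1, and chance alone flags about 1 in 20. Without that array Slc25a32 was called at 1 µM and 24 h, with a log2 fold change of -0.68 (adjusted p = 0.0299) in place of -0.56 (adjusted p = 0.0801), and the difference between 100 and 1 µM was -0.59 (adjusted p = 0.0508) in place of -0.72 (adjusted p = 0.00944).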

How the results depend on the processing

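Of 182 alternative counts of called carriers, 168 lay within 1.5 times the reported count. The 1 µM comparison at 24 h gave 3 calls with the mean of probe sets in place of 7. At 1 µM and 48 h, where 2 carriers were called, median centring, quantile normalization and the fit of those groups alone gave 1 each, no mean-variance trend gave 0, and leaving out single arrays gave 0 to 3. The difference of the 100 µM effect between times gave 0 to 1 calls when single arrays were left out. Of the 79 called pairs of a carrier and a comparison, 34 held in every alternative, and 1316 of the 1469 alternative values for these pairs kept the call. The sign turned only with other probe sets. For Slc25a15 a probe set with a mean signal of 15.5 gave 0.3542 at 1 µM and 24 h, 0.2637 at 100 µM and 24 h, 0.8436 at 100 µM and 48 h and 0.6389 for 100 against 1 µM at 48 h. For Slc25a46 the second probe set gave 0.0056 for vehicle at 48 against 24 h, and for Slc25a48 the second probe set gave 0.3365 for 100 against 1 µM at 48 h. The cause was not tested. The labels give no replicate numbers, but running numbers in the titles go through the 6 groups in 5 rounds, and nothing says that a round shares anything. A replicate block by round, chosen after seeing the data, gave 16 calls in place of 15 at 100 µM and 24 h, 12 in place of 11 for 100 against 1 µM at 24 h, 13 in place of 14 for the same at 48 h and 16 in place of 15 for vehicle between times, with the other counts unchanged. It ended the call of Slc25a48 for 100 against 1 µM at 48 h (adjusted p = 0.0576). Deviations from the group means correlated between -0.0382 and 0.111 over the 75 same-round pairs of different groups (median 0.00637), and 12 of 30 arrays correlated best with an array of their own round. Of the 17 members dimmer than the median gene, 3 were called at 100 µM at each time.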

Other observations

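Probe sets outside the rule for members also carried a family name. Slc25a51, known as a carrier of NAD into mitochondria, has 2 probe sets whose annotation gives the symbol more than once, and a probe set of the related Slc25a51l1 is also present. At 100 µM and 24 h these gave log2 fold changes of 0.43 (SE 0.057, adjusted p = 1.42e-06), 0.33 (adjusted p = 0.189) and, for Slc25a51l1, 0.46 (SE 0.073, adjusted p = 2.17e-05) in limma. At 48 h the values were 0.25 (adjusted p = 0.00227), 0.43 (adjusted p = 0.0895) and 0.22 (adjusted p = 0.0462). In vehicle from 24 to 48 h they were 0.32 (adjusted p = 0.000162), 0.14 (adjusted p = 0.716) and 0.37 (adjusted p = 0.000646). Positive values mean higher at 100 µM or at 48 h. Their probes may share sequence, so the 3 values are not independent.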
